A study of Drosophila melanogaster with 2 samples.

Results

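In toe peaks at divergent promoters, a single summit lay near start sites of protein-coding genes on both strands, mostly transcribed away from each other. The peaks were chosen from the authors' list of 3469 peaks reproducible between replicates. Their summit was within 500 bp of annotated start sites of at least 2 different protein-coding genes, with at least 1 gene on each strand. The choice used the annotation and the summit position and not the signal. It gave 814 peaks, which were 23.5% of all reproducible peaks and 36.9% (95% Wilson interval 34.9 to 39.0) of the 2205 peaks near any protein-coding start. They were set against the 1358 promoter peaks with exactly 1 protein-coding gene within the same distance, called single-gene promoter peaks here. A further 33 promoter peaks had several genes on the same strand only.

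The data came from chromatin immunoprecipitation and sequencing (ChIP-seq) of whole adult male Drosophila melanogaster. The flies were of a transgenic line that stably expresses toe with GFP fused to its C-terminus, and the tagged protein was recovered with an antibody against GFP from sonicated chromatin. There was 1 group, with biological replicates 2 and 3, and the age of the flies is unknown per the labels. The control named in the labels was not analysed here. Because whole animals were used, weak binding in many cells and strong binding in few cells cannot be told apart. The files give no read counts, so the depth behind each value is unknown. Peaks are not replicates of a condition, and every interval below covers the counting of peaks or genes only.

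Toe, twin of eyegone, is a transcription factor of the Pax family with a paired-type homeodomain, known with its neighbour eyegone for roles in eye development. In the compact fly genome many genes start close to a gene on the opposite strand and share the DNA between the starts, and such pairs often hold genes that most cells use. Promoters of this kind are known to carry the DNA replication-related element bound by Dref, the CGATA core bound by the boundary protein BEAF-32, and motif 1, bound by M1BP.

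The DNA between the facing starts is shown first for the strongest of these peaks that had the summit between starts 40 to 250 bp apart and overlapped no annotated exon. Each run is the plus strand of dm6, 5′ to 3′, read from RefSeq. The gene named first runs leftward from the left end, and the gene named second runs rightward from the right end. Capitals mark 6 words on either strand, the element core TATCGATA, the shorter core CGATA (which can also read TATCG), motif 1 as GGTCACACT, the E-box CAGCTG, and a pair of words with no factor assigned here, of which the first is ACAGTGG and the other is AGTGTTG.
Tcs5 and CHMP2B: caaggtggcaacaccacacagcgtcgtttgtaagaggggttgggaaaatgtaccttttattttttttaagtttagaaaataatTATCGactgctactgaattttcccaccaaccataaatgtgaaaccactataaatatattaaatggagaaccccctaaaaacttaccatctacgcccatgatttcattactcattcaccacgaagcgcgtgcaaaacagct
CG7601 and CIA30: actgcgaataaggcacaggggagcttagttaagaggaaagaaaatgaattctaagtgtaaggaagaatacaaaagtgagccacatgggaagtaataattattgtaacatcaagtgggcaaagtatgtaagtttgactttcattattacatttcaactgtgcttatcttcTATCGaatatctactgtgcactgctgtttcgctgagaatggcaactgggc
CG3437 and CG3552: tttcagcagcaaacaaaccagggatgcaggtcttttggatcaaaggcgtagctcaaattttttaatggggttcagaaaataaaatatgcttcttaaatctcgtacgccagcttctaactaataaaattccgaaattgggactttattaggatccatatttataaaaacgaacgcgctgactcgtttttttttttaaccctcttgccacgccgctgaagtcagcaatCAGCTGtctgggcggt
Bdp1 and CG6565: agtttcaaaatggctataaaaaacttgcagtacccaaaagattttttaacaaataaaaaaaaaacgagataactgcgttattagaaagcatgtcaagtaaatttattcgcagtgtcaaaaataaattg
CG10747 and Pyroxd1: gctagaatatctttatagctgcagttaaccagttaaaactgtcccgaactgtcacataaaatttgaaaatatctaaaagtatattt
RpS27 and Nup37: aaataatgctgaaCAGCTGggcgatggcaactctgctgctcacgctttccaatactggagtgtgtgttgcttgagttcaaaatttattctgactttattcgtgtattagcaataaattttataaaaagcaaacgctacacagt
The first is chr3L:5139396-5139618 and has its summit at base 108 of 223. Tcs5 is a kinase of the complex that modifies transfer RNA, and CHMP2B is a subunit of the membrane-cutting ESCRT-III machinery. The next is chr3R:29736746-29736964, beside the complex I assembly factor CIA30, with the summit at base 108 of 219. The others are chr3L:9457670-9457911, chr2L:13373891-13374018 at the gene of the RNA polymerase III factor Bdp1, chr2L:20091349-20091434 and chr3R:25247515-25247657, between the ribosomal protein gene RpS27 and the nuclear pore gene Nup37. None of the 6 held the full TATCGATA. Both Tcs5 and CG7601 showed CGATA in reverse, and the runs at Bdp1 and CG10747 held no marked word.

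A further 3 runs were chosen after their values were seen. Each is the strongest peak, with starts up to 301 bp apart and the other conditions as above, that held the element core, AGTGTTG and motif 1 in turn.
Atat and Shc: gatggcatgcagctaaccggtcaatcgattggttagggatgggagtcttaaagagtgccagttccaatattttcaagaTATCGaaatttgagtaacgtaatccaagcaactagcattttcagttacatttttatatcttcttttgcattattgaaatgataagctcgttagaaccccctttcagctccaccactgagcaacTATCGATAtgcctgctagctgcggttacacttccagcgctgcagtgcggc
alphaCOP and CG13919: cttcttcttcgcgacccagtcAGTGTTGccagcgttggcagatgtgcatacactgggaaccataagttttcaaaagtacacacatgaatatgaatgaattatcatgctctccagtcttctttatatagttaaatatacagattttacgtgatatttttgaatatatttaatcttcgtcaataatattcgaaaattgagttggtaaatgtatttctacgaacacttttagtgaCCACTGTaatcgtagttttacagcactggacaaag
Sf3b6 and Tnpo: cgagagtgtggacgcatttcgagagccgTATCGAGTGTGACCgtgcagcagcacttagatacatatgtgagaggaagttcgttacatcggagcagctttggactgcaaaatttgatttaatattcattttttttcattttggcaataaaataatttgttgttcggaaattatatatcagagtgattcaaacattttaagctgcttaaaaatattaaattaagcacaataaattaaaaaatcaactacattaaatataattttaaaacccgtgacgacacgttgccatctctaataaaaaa
The first is chr3L:9426759-9427009, between the tubulin acetyltransferase gene Atat and the receptor signalling adaptor Shc. Its TATCGATA began at base 202, toward the Shc start, and its summit was at base 126. The run at alphaCOP, a coat protein of Golgi vesicles, is chr3L:1645200-1645466, with AGTGTTG from base 22 and the summit at base 124. The run between the splicing factor gene Sf3b6 and the nuclear import receptor Tnpo is chr3L:6193180-6193479, with GGTCACACT in reverse from base 34 and the summit at base 173. In these 3 runs the named word stood nearer to a start than to the summit.

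Most toe summits lay between the facing starts. The start of the minus-strand gene and that of the plus-strand gene were a median of 298 bp apart (quartiles 219 and 416 bp). The summit lay between them in 660 of 814 peaks (81.1%, 78.2 to 83.6), outside the gap in 141, and at starts that overlapped (plus-strand start left of the minus-strand start) in 13. It was within 50 bp of the midpoint in 334 peaks (41.0%) and within 100 bp in 569 (69.9%). The rule itself favours such positions, since it asks for a summit within 500 bp of starts on both strands. For the 801 peaks whose facing starts did not overlap, positions between the starts made up a mean of 49.1% of those within 500 bp of both, and positions within 100 bp of the midpoint 31.0%. These shares are therefore descriptions, with no test. The sides were nearly even, with 411 summits nearer to the plus-strand start and 399 nearer to the minus-strand start. The nearer start was a median of 92 bp away and the farther 208.5 bp away.

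At single-gene promoter peaks the summit was upstream of its nearest start in 1096 of 1358 (80.7%, 78.5 to 82.7), so an upstream summit was about as frequent in both kinds of peak. A summit within 100 bp of the nearest start was found in 445 divergent promoter peaks (54.7%) and 522 single-gene promoter peaks (38.4%). The difference was 16.2 points (95% Newcombe interval 11.9 to 20.5), and 9.71 to 22.6 at the wider 99.69% level that allows for 16 comparisons. A divergent peak has more than 1 start to be near. With a limit of 200 bp in place of 500 bp for the choice of peaks, the difference was 4.25 points and its interval, -1.42 to 9.74, held 0.

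**Figure D1:**
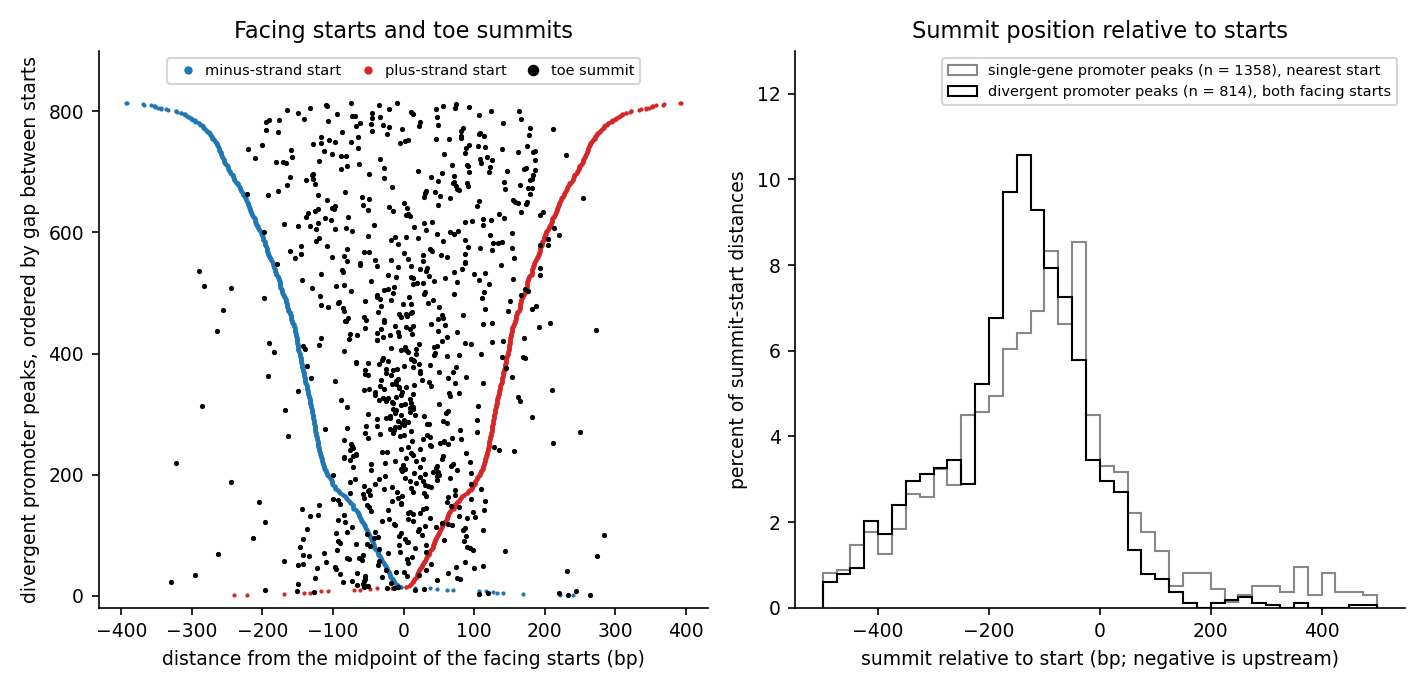
Left, each of the 814 divergent promoter peaks is a row, ordered by the gap between its facing starts, with the starts and the summit plotted by distance in bp from the midpoint between the starts. Right, the percent of summit-to-start distances in bins of 25 bp is drawn for both facing starts of the divergent promoter peaks and for the nearest start of 1358 single-gene promoter peaks. Summits crowd around the midpoint, and most lie upstream of the starts in both kinds of peak.

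Distance between the starts and summit position went together. For starts up to 100 bp apart the summit was between them in 20 of 90 peaks (22.2%), and for 201 to 300 bp it was in 211 of 232 (90.9%). The median distance from the midpoint was 39 bp for gaps of 201 to 300 bp and 104 bp for gaps of 401 to 500 bp. A wider gap leaves more room between the starts, so these shares describe the arrangement and were not tested.

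Most peaks involved exactly 2 protein-coding genes (773 of 814). There were 3 genes at 35 peaks, 4 genes at 4, 5 at 1 and 10 at 1. The peak with 10 lay among the pre-mod(mdg4) genes, whose transcripts are joined by trans-splicing to the boundary protein gene mod(mdg4), and its signal value was 718, with 462 in replicate 2 and 258 in replicate 3. PIG-M and NC2alpha, a GPI-anchor enzyme and a transcription repressor subunit, were among 5 genes at a peak of signal value 232. The peaks at Tim10 and Ppcdc, at CG31650 and CG33995, and at COX6B and CG33932 each had 4 genes, and Tim10, a mitochondrial import chaperone, had more than 1 such peak. A non-coding start also lay within 500 bp at 13 divergent promoter peaks (1.60%, 0.936 to 2.71) and at 105 single-gene promoter peaks (7.73%, 6.43 to 9.27).

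The 814 peaks lay at 729 distinct facing pairs, and 84 pairs had more than 1 of them. At these 84 the summits were a median of 204 bp apart (lowest 199, highest 2443), against a median peak width of 420 bp. The strongest summit was between the starts in 72 of 84 and the second in 51 of 84. Counting only the strongest peak of each overlapping region left 726 divergent promoter peaks of 3225 regions.

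Divergent promoter peaks stood higher in the list than single-gene promoter peaks. The signal values were set by the authors on a scale that no file or label states, so they serve to rank and describe peaks. Its median was 157 at divergent promoters (quartiles 95.2 and 241), 102 at single-gene promoters (75.4 and 170) and 85.4 at the 1264 peaks with no protein-coding start within 500 bp. The 1734 strongest of the 3469 peaks held 581 divergent promoter peaks (71.4%, 68.2 to 74.4) and 669 single-gene promoter peaks (49.3%, 46.6 to 51.9). The difference was 22.1 points (18.0 to 26.1, and 15.8 to 28.1 at the wider level). It was 22.3 points between peaks of each kind with a summit within 100 bp of a start.

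The very top of the list was also richer in divergent promoters. Of the 346 strongest peaks, 151 were divergent (18.6% of the 814) and 127 were single-gene (9.35% of the 1358), a difference of 9.20 points (6.18 to 12.4, and 4.69 to 14.0 at the wider level). With a start-site limit of 200 bp it was 17.5 points (12.97 to 22.4). Among the 100 strongest there were 45 divergent and 34 single-gene promoter peaks. The single strongest peak of the list was at a single-gene promoter (3278), and the strongest divergent one had rank 5. Peaks with a deposited q-value under 0.05, reading the ninth column as its -log10 by the file layout, were 757 of 814 (93%), 1203 of 1358 (88.6%) and 3011 of all 3469 (86.8%).

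**Figure D2:**
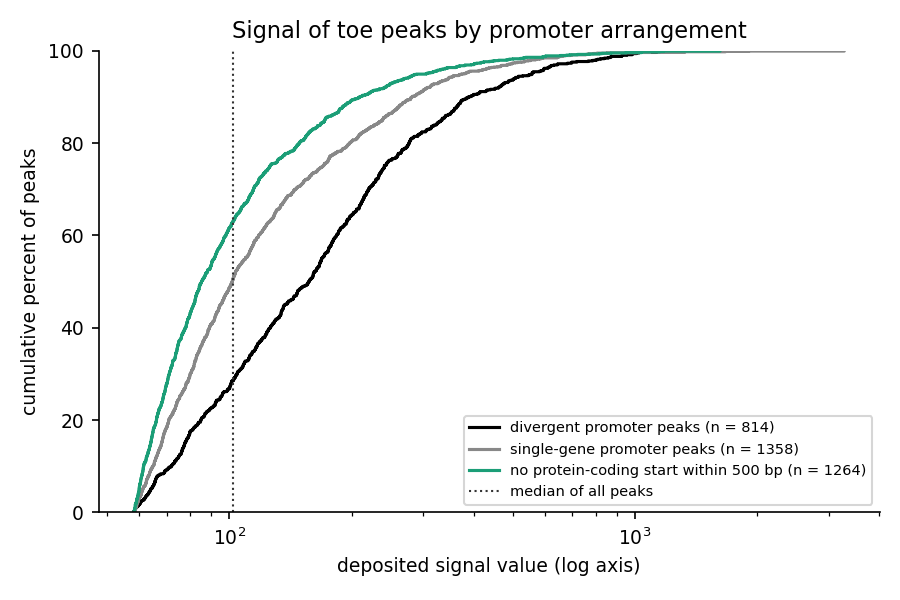
The cumulative percent of peaks is plotted against the deposited signal value on a log axis for 814 divergent promoter peaks, 1358 single-gene promoter peaks and 1264 peaks with no protein-coding start within 500 bp. The dotted line is the median of all 3469 peaks, and the curve of the divergent promoter peaks lies to the right of the others over most of its range.

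Each replicate alone gave a similar order. In replicate 2 the median signal was 95.3 at divergent promoters (810 peaks with a region) and 60.04 at single-gene promoters (1346). In replicate 3 it was 62.7 (797) and 46.1 (1343). When peaks were classified afresh in each replicate's own 3469 strongest regions, the difference in the share above the list's median was 19.3 points (15.3 to 23.2) in replicate 2 and 23.0 points (18.8 to 27.0) in replicate 3.

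Of the 814 divergent promoter peaks, 775 overlapped the 3469 strongest regions of replicate 2 (95.2%) and 709 those of replicate 3 (87.1%). Both replicates had 681 (83.7%, 81.0 to 86.0), and neither had 11. For single-gene promoter peaks the share in both was 71.4% (68.9 to 73.7). The list was made for agreement between these replicates, so these shares describe it and are no separate evidence. Across 793 divergent promoter peaks with a region in both, Pearson's r of log2 signal was 0.846 and Spearman's rho 0.847. Across 1331 single-gene promoter peaks they were 0.760 and 0.670, and the quartiles of signal were farther apart at divergent promoters, which bears on such a value.

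**Figure D3:**
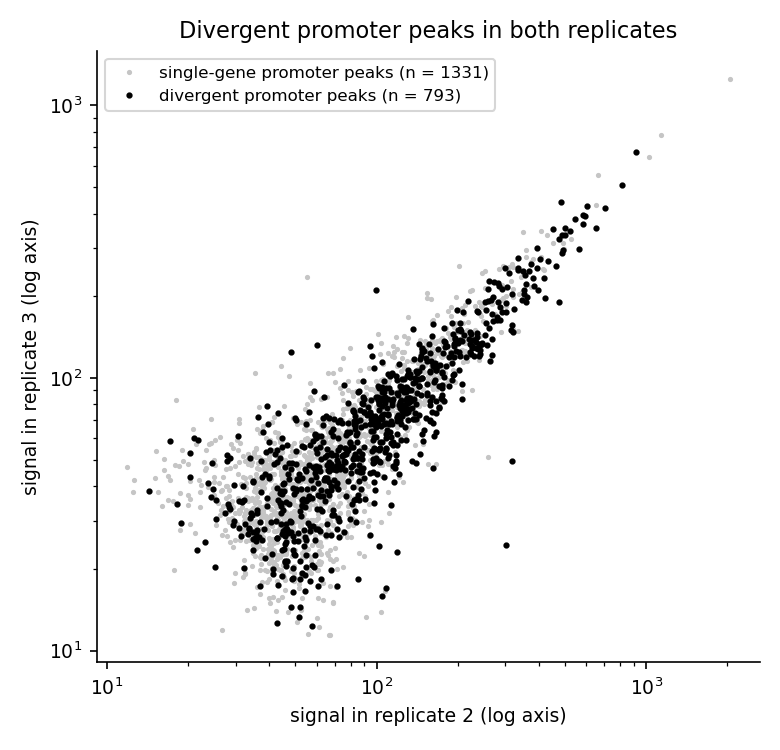
The signal value in replicate 3 is plotted against that in replicate 2, both on log axes, for 793 divergent promoter peaks (black) and 1331 single-gene promoter peaks (grey) with a region in both lists. The strong divergent promoter peaks lie along a narrow band, and the scatter widens among weak peaks.

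The 12 strongest divergent promoter peaks were high in both replicates, at rank 33 or better in replicate 2 and rank 40 or better in replicate 3. Tcs5 and CHMP2B (FBgn0035590 and FBgn0035589) had a signal value of 1583, with 913 in replicate 2 and 673 in replicate 3. Pdrg1 and Pal1, a peptide-amidating enzyme, had 1328, with 816 and 510 in the replicates. Atat and Shc had 1128, with 701 and 422, and the summit there was 126 bp from each start.

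Art3, an arginine methyltransferase gene, faces the mitochondrial ribosomal protein gene mRpS10, with a signal value of 1022 (602 and 426). The mitochondrial protease gene Lon faces PIG-F, a GPI-anchor gene, with 1008 (653 and 354). The mitochondrial ribosomal protein gene mRpL23 faces CG9004 at 985 (594 and 392). At CG7601 and CIA30 the value was 954 (585 and 366). Hrd3, of the degradation pathway of the endoplasmic reticulum, faces the mitochondrial phosphatase gene PTPMT1 at 868 (520 and 347).

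Also among the 12 were CG11309 with CG7632 at 929 (481 and 443), CG8372 with CG8360 at 926 (544 and 384) and CG8892 with CG34126 at 874 (565 and 298). In 4 of the 12 the summit was outside the gap, and these had the shortest gaps, 50 bp at mRpL23, 39 bp at CG11309, 57 bp at CG8372 and 27 bp at CG8892. The gaps of the other 8 were at least 220 bp, the value at CG7601.

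The weakest divergent promoter peaks stood at the end of the list. CG4390 and mdlc had 58.3 (31.4 and 26.4), and nero, a hydroxylase gene for a translation factor, with CG1910 had 58.2 (37.1 and 17.3). The peak at mip40, of the Myb-MuvB complex, and the immune signalling adaptor gene Tab2 had 58.2, with 40.4 in replicate 2 and no region in replicate 3. At the distance limit, the peak at Fatp1 and Lrr47 was just inside, at 499 bp from the Lrr47 start, with a signal value of 112. That at the eye homeobox gene ro and T48 was 493 bp from the ro start, with 64.4. Just outside were the peaks at Nepl19, 506 bp from the Nepl20 start, with 150, and at Sf3b3, 507 bp from the CG42553 start, with 111. Where the starts overlapped, the strongest peaks were at CG4741 and Adck1 (414), at Dhod and Sys1 (221) and at CG31808 and Cyt-c-d (161).

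Head-to-head gene pairs carried a toe peak more often than genes standing alone. The annotation held 2592 pairs of neighbouring protein-coding genes with facing starts at most 1000 bp apart, and 7983 lone genes with no other protein-coding start within 1000 bp. A summit within 500 bp of both genes was found at 769 pairs, or 29.7% (27.9 to 31.5), and a summit within 500 bp of the start at 901 lone genes, or 11.3% (10.6 to 12). Of all 13968 protein-coding genes, 19.3% had a summit that near. The difference between pairs and lone genes was 18.4 points (16.5 to 20.3, and 15.6 to 21.3 at the wider level). It was 17.3 points among genes with a single annotated start, and 26.2 points when a summit at either gene of the pair counted. With a limit of 200 bp it was 7.82 points (6.34 to 9.39).

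The longer list behind the reproducible one did not show so large a difference. In the pooled list of 30000 regions, peaks and background together, 1059 pairs (40.9%) and 3050 lone genes (38.2%) had a summit by the same rule. Of those 1059 pairs, 769 also had a reproducible peak (72.6%, 69.9 to 75.2). Of the 3050 lone genes it was 901 (29.5%, 27.9 to 31.2). By these rules the pooled shares were close, and pairs and lone genes differed much in how often the summit belonged to a reproducible peak. A pair needs a summit within 500 bp of both genes, which leaves less room than the rule for lone genes. The pooled shares are therefore not a like comparison, and a summit at either gene of a pair was not counted in that list.

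The share of pairs with a peak was highest at middle gaps. It was 28.0% (24 to 32.5) for starts up to 100 bp apart and 26.8% (22.5 to 31.7) for 101 to 200 bp. It was 41.5% (37.4 to 45.7) for 201 to 300 bp and 40.5% (35.7 to 45.5) for 301 to 400 bp. For 401 to 500 bp it was 32.5% (27.1 to 38.3). Beyond that it was 23.3% for 501 to 700 bp and 2.92% for 701 to 1000 bp, where few positions are within 500 bp of both starts. With a summit at either gene counted, the share at 701 to 1000 bp was 33.9% (28.6 to 39.7). The median signal of the divergent promoter peaks was 190 for gaps of 201 to 300 bp, 164 for 301 to 400 bp, 137 for both shorter classes and 127 for 401 to 500 bp.

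**Figure D4:**
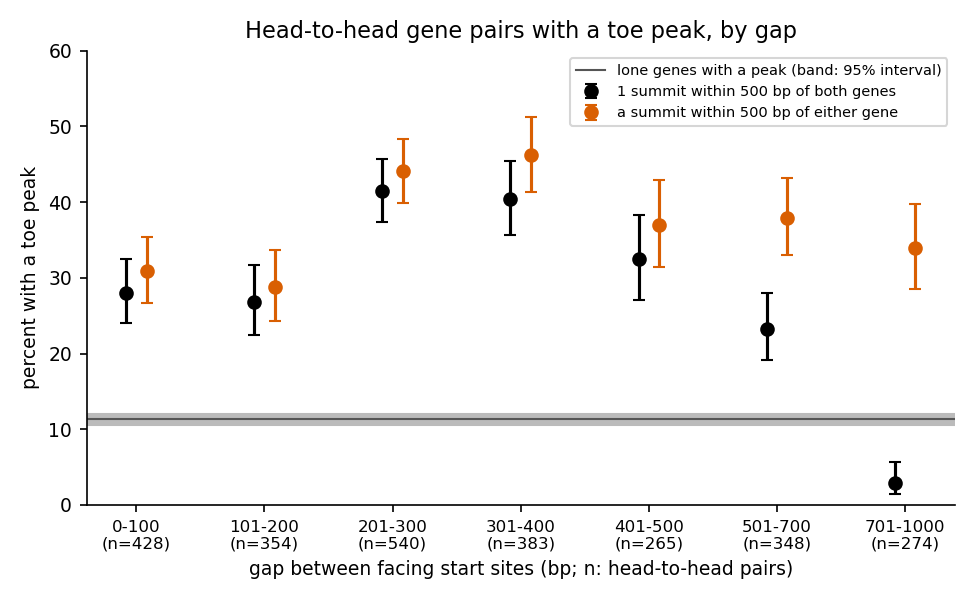
The percent of head-to-head pairs with a toe peak is plotted by the gap in bp between their facing starts, with a summit within 500 bp of both genes (black) or of either gene (orange); bars are 95% Wilson intervals. The grey line and band are the 11.3% of lone genes with a peak and its interval, and the shares at 201 to 400 bp are the highest of the black points.

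All large chromosome arms held such peaks. The share of pairs with a peak was 27.9% on 2L, 23.3% (19.9 to 27.1) on 2R, 32.7% on 3L, 34.1% (30.6 to 37.8) on 3R and 29.8% (25.5 to 34.5) on X. Lone genes ran from 9.12% on 2L to 12.6% on 3R over the same arms, so pairs were ahead on each of these arms. On chromosome 4, 1 of 11 pairs (9.09%) and 8 of 58 lone genes (13.8%) had a peak, so pairs were not ahead there, and the Y chromosome had no pair. The interval of the male X overlapped those of 2R and 3R.

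Divergent promoter peaks lay at 1502 protein-coding genes, which were 10.8% of all 13968 and 55.6% of the 2701 genes with a summit within 500 bp. The annotated head-to-head pairs, with starts at most 1000 bp apart, held 35.7% of all 13968. The lists below are families picked by gene symbol, and their counts are descriptions. Their share of genes at divergent promoters also depends on how many of their genes have a facing neighbour.

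Mitochondrial ribosomal protein genes were bound mostly at divergent promoters. Of the 73, 30 had a summit and 27 of these were at divergent promoter peaks, and 27 of the 58 in head-to-head pairs had a peak at the pair (46.6%). The pair share over all genes was 29.8%. After mRpS10 and mRpL23, the strongest was mRpS23 with CenG1A at 822 (486 and 334). Genes of the cytoplasmic ribosome had 26 of 55 bound genes at divergent promoter peaks. Of the 55 in head-to-head pairs, 26 had a peak at the pair (47.3%), close to the mitochondrial share. RpS27 with Nup37 had 621 (379 and 232) and RpL32 with CG7943 had 609 (395 and 210).

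Aminoacyl-tRNA synthetases, which load amino acids onto transfer RNA, had 11 of 13 bound genes at divergent promoter peaks, and 11 of 23 in head-to-head pairs had a peak (47.8%). The strongest were GluProRS with AP-1sigma at 338 (178 and 152), AspRS with Nmda1 at 291 (178 and 101) and SerRS with CG17260 at 279 (144 and 133). Translation factors were seldom among them, with 3 of 10 bound genes at divergent promoter peaks and 3 of 25 in pairs (12%). They were eIF4EHP, a cap-binding repressor of translation, with CG18428 at 597 (336 and 253), eIF3m with CG8323 at 235 (146 and 86.7), and eEF1alpha1 with ERp60 at 73.2 (44.3 and 29.0).

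Respiratory chain and ATP synthase genes had 12 of 17 bound genes at divergent promoter peaks. Of the 42 in pairs, 12 had a peak at the pair (28.6%), close to the 29.8% over all genes. The complex I genes led, ND-MWFE with TppII at 384 (247 and 135), ND-51 with CG13994 at 372 (239 and 133) and ND-SGDH with RhoGAP68F at 367 (199 and 178). Of the 48 proteasome genes, 5 were bound, all 5 at divergent promoter peaks. These were 10.4% of the list, against 10.8% of all protein-coding genes. Of the 26 in pairs, 5 had a peak at the pair (19.2%), against 29.8% over all genes. Rpn5 with the histone acetyltransferase gene Hat1 had 369 (240 and 120), Rpn6 with ave had 279 (175 and 105) and Prosalpha3 with dgt3 had 122 (83.8 and 35.9).

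Insulator and architectural protein genes, whose products organise chromatin, had 7 bound genes of 13. Of these, 4 were at divergent promoter peaks (57.1%), close to the 55.6% over all genes. Of the 7 in pairs, 4 had a peak at the pair, against 29.8% over all genes. Their median signal, 438, was the highest of the lists, against 168 over all genes, and rests on 4 genes. The chromodomain protein gene Chro faces Ssl1, a subunit of the factor TFIIH, at 808 (451 and 353). Cp190, a cofactor of insulator proteins, with CG4338 had 557 (353 and 203). Dref itself faces RpL13 at 319 (162 and 158). Pairs with both genes in these lists were RpS27 with Nup37, Dref with RpL13, and TrpRS with Vps16A at 66.3.

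The smaller lists follow by their counts. Over all genes, 55.6% of bound genes were at divergent promoter peaks, and 29.8% of genes in pairs had a peak at the pair. The pair share was 38.9% for nuclear pore genes (7 of 18) and 44.4% for Mediator genes (8 of 18). It was 35.3% for Rab and Vps genes (12 of 34) and 33.3% for DNA replication genes (3 of 9). Nuclear pore genes had 7 of 8 bound genes at divergent promoter peaks, with Nup98-96 and mbc at 440 (269 and 172) and Nup62 with CG7997 at 85.4 (52.9 and 34.3) after Nup37. Mediator genes, of the complex that links factors to RNA polymerase II, had 8 of 11. MED27 with elm had 549 (358 and 190) and MED30 with Rev1 had 507 (291 and 212). MED7 with Cap-H2 had 329, with 208 in replicate 2 and no region in replicate 3. Rab and Vps trafficking genes had 12 of 17, led by Vps33B with the furin protease gene Fur1 at 766 (487 and 286), Rab3GAP1 with CG14352 at 400 (267 and 138) and Vps36 with Liprin-beta at 363 (241 and 123). DNA replication genes had 3 of 3. PCNA2 with CG10366 and Mcm2 with RPA1 both had 195 (105 and 88.9, and 123 and 67.9), and Mcm5 with Art1 had 164 (94.9 and 67.6).

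The windows at divergent promoter summits differed in sequence from those at single-gene promoters. Windows of 201 bp around the summit were searched on both strands for 12 words, namely TATCGATA (the core of the DNA replication-related element), CGATA (the BEAF-32 core), GGTCACACT (motif 1), CAGCTG (an E-box), GAGAGAG (bound by GAGA factor), TATAAA (the TATA box), TCAGTT (like the initiator), TAATTA (a homeodomain core), GTCACGC (a paired-domain core), TTCNNNGAA (the STAT site), and the pair of words with no factor assigned, ACAGTGG as the former and AGTGTTG as the latter. The shorter CGATA core lies inside the element core, so their counts overlap. A match is a run of letters and not a shown binding site.

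GAGA repeats were rare at divergent promoters. GAGAGAG was in 9 of 814 windows (1.11%, 0.583 to 2.09) and in 94 of 1358 at single-gene promoters (6.92%, 5.69 to 8.40), a difference of -5.82 points (-7.38 to -4.24, and -8.24 to -3.35 at the wider level). Windows of the same length on all protein-coding starts held it in 4.68%. Here and below, such windows were centred on the start and those of peaks on the summit, so their shares are not for like positions. Head-to-head pairs without a peak held it in 2.53% at their midpoints, and pairs with a peak in 1.30%. That difference of -1.23 points had an interval of -2.30 to 0.0323.

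AT-rich words were more frequent. TATAAA was in 358 windows (44.0%) against 418 (30.8%), a difference of 13.2 points (9.00 to 17.4, and 6.87 to 19.5 at the wider level). TAATTA was in 182 (22.4%) against 210 (15.5%), a difference of 6.89 points (3.50 to 10.4, and 1.82 to 12.2). The windows also had less G and C, a median of 33.8% (quartiles 29.9 and 38.2) against 37.8% (32.8 and 43.8). Within windows of 30 to 40% G and C, the difference was 7.80 points (1.96 to 13.6) for TATAAA and 4.82 points (0.07 to 9.72) for TAATTA, and CGATA differed by 11.6 points (5.61 to 17.4) there. On all protein-coding starts TATAAA was in 26.9% and TAATTA in 9.39%, with a median of 42.3% G and C. At midpoints, head-to-head pairs with no peak had a median of 33.8% G and C, and pairs with a peak 31.8%. TATAAA was in 39.6% of midpoint windows of pairs with no peak. Pairs with a peak held TATAAA in 42.4%, a difference of 2.82 points whose interval, -1.38 to 7.06, held 0. For TAATTA it was 24.2% against 20.2%, a difference of 4.002 points (0.471 to 7.67, and -1.27 to 9.58 at the wider level).

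CGATA was in 403 windows (49.5%) against 507 (37.3%), a difference of 12.2 points (7.87 to 16.4, and 5.69 to 18.6 at the wider level). On all protein-coding starts it was in 37.1%. In windows of 50 bp to either side of the summit the difference was 2.68 points (-1.04 to 6.49), and for summits within 100 bp of a start it was 4.64 points (-1.67 to 10.9), both with intervals that held 0. AGTGTTG was in 103 windows (12.7%) against 118 (8.69%), a difference of 3.96 points (1.31 to 6.79, and -0.000308 to 8.30 at the wider level). Its interval held 0 under the same settings. It also held 0 with a start-site distance of 200 bp, at 2.497 points (-1.185 to 6.715). Among the peaks above the median signal it held 0 too, at 2.96 points (-0.632 to 6.63). The interval of CGATA left out 0 under both of these. On all protein-coding starts AGTGTTG was in 5.25%.

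The full TATCGATA was in 73 windows (8.97%) against 90 (6.63%), a difference of 2.34 points (0.0493 to 4.81) that held 0 at the wider level (-1.08 to 6.17). On all protein-coding starts it was in 6.44%. GGTCACACT was in 3.32% against 3.17%, with 4.42% on all starts. For the E-box, the initiator-like word, the paired-domain core, the STAT site and ACAGTGG the interval of the difference also held 0. Their shares, in this order, at divergent promoter peaks were 14.1%, 11.8%, 1.23%, 5.41% and 4.67%, and on all starts 13.4%, 21.9%, 1.14%, 6.06% and 2.28%. With 200 bp to either side of the summit, the difference left out 0 for the E-box at 10.6 points (6.74 to 14.5), for the initiator-like word at -5.40 (-9.01 to -1.68), for ACAGTGG at -3.11 (-5.58 to -0.490) and for motif 1 at 4.31 (2.06 to 6.75). The E-box difference also left out 0 with 50 bp, at 2.44 points (0.384 to 4.69), and in the list of replicate 3 alone, at 3.88 (0.978 to 6.93). There the initiator-like word differed by -3.29 points (-6.07 to -0.353).

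Bound pairs were also set against pairs with no peak at either gene, in windows on the midpoint between the starts (769 and 1620 pairs). The words were chosen with earlier results of these data known, so these differences are descriptions and no separate evidence. The wider level allows for the 16 comparisons above and not for these. AGTGTTG was more frequent at bound pairs, with 9.88% against 4.81%, a difference of 5.07 points (2.83 to 7.56, and 1.77 to 8.95 at the wider level). TCAGTT was less frequent, with 9.62% against 16.3%, a difference of -6.67 points (-9.34 to -3.81, and -10.6 to -2.26). GGTCACACT was also less frequent, with 2.47% against 5.74%, a difference of -3.27 points (-4.79 to -1.57, and -5.56 to -0.565). The paired-domain core GTCACGC was in 0.520% against 1.79%, a difference of -1.27 points (-2.10 to -0.296). Its interval held 0 at the wider level (-2.59 to 0.404), and it rests on 4 bound pairs and 29 pairs with no peak. The shares of CGATA were 43.7% and 41.7%, and those of TATCGATA 9.75% and 9.01%, with intervals of the difference from -2.20 to 6.28 and from -1.68 to 3.38. Pairs with and without a peak differ in their gaps, as the shares by gap show, and a gap sets how near a midpoint window comes to a start. The part of the gap in these differences was not tested.

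**Figure D5:**
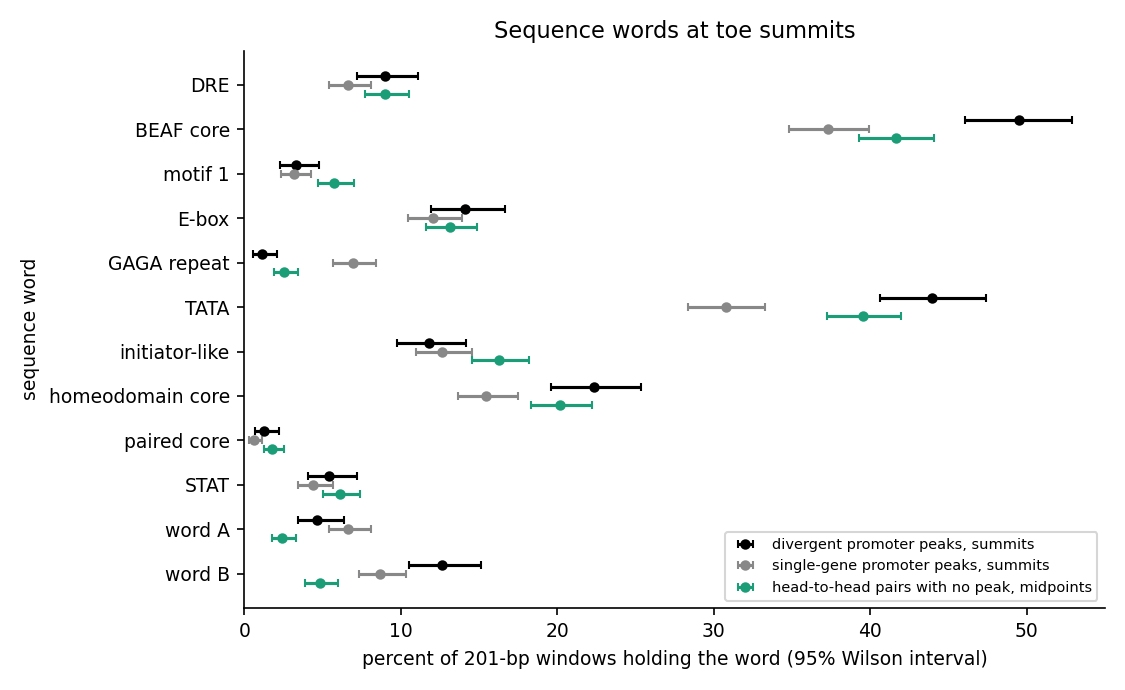
The percent of 201-bp windows that held each of the 12 words is plotted with 95% Wilson intervals for the summits of 814 divergent promoter peaks, the summits of 1358 single-gene promoter peaks and the midpoints of 1620 head-to-head pairs with no peak. The names stand for the words in the order of the text, with word A for ACAGTGG and word B for AGTGTTG; the GAGA repeat shows the widest gap in ratio between both kinds of peak.

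Motif 1 stood at the starts and away from the summit. Within 300 bp of 801 summits with facing starts that do not overlap, GGTCACACT occurred 117 times, at a median of 4 bp downstream of the nearest facing start and 155 bp from the summit. It was within 75 bp of a facing start in 96 of 117 (82.1%, 74.1 to 88.0) and within 50 bp of the summit in 8 of 117 (6.84%). TATCGATA occurred 215 times, at a median of 27 bp upstream of a facing start and 119 bp from the summit, with 80.9% within 75 bp of a start and 15.3% within 50 bp of the summit. AGTGTTG occurred 248 times, at a median of 5.5 bp upstream and 105.5 bp from the summit, with 73.8% and 22.2% for the same measures. Over all 814 summits, GGTCACACT had 8 occurrences within 50 bp and 52 at 150 to 250 bp on either side, a longer stretch in all. The counts were 34 and 54 for TATCGATA and 57 and 57 for AGTGTTG. In bins of 25 bp, TATCGATA had 11 and 7 occurrences at -25 to -1 and 0 to 24 bp from the summit. Its highest counts were 21 at -125 to -101 bp and 18 at 75 to 99 bp. The nearer bins at -100 to -76 bp (11), -75 to -51 bp (8) and 50 to 74 bp (9) were like those at the summit. AGTGTTG had 13 and 19 in the bins at the summit and at most 21 in any bin, so it was not sparse there.

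At single-gene promoter peaks the same words were nearer to the summit. GGTCACACT was a median of 90.5 bp away, with 16 of 80 occurrences within 50 bp. TATCGATA was 94.5 bp away, with 32.4% of 182, and AGTGTTG was 84 bp away, with 35.4% of 243. Divergent promoters have more than 1 start around the summit, so a word there is nearer to a start by construction, and these distances are descriptions.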

How the data were processed

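ChIP-seq libraries of 1 group with 2 biological replicates were analysed, as peak lists on dm6. Per the files' notes, the authors called regions on each replicate and on both pooled, each against a control, and derived the reproducible list by the irreproducible discovery rate; no source used here names the aligner or the caller. The signal value the authors deposited has no stated scale, and the deposited ninth column was read as -log10 of a q-value by the file layout. No read counts were given, so depth and its precision are unknown.

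Summits were the start (counted from 1) plus the tenth column. Starts came from Ensembl release 115 protein-coding transcripts, and bases from RefSeq's copy of the same assembly; none from arm 2R are printed. Shares have Wilson intervals and differences have Newcombe intervals, at 95% and at 99.69%. The latter allows for 16 comparisons, between both kinds of peak and of pairs with lone genes. It does not allow for those of words between pairs with and without a peak. No p-value was computed. A peak took its replicate value from the overlapping region with the nearest summit. Scripts (Python 3.11.15, pandas 2.3.3, scipy 1.17.1) were tested on simulated data. Named peaks were the 12 strongest, the 3 weakest, those at the distance limit, those with most genes or overlapping starts and the 3 strongest of each of 11 gene lists; some named by these rules are not reported here. The members, words and lists were chosen with earlier results of these data known. Lists on dm3 were not used here.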

Additional observations from a re-analysis of the deposited data

How the results depend on the processing

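Of 251 values recomputed under alternative settings, 15 changed sign, all of them differences for single words. In 12 of the 15, over 6 words, the interval held 0 under both settings, and 6 of the 12 were for motif 1. The other 3 were for TATCGATA, whose difference became -0.173 points with 1 start site a gene, -0.193 with word windows of 50 bp and -0.958 for summits within 100 bp of a start. The share of promoter peaks that were divergent (36.9%) was 22.6% with a start-site distance of 200 bp, 39.98% with 1000 bp, 41.0% with 1 start site a gene and 45.8% among the peaks above the median signal. In the list of a single replicate it ran from 36.7% to 39.98%. The share of summits between the starts (81.1%) was 75.7% with 200 bp and 74.2% with 1 start site a gene. The difference in summits within 100 bp of a start was 4.25 points with 200 bp. The share found in both replicates (83.7%) was 88.4% with a q-value under 0.05, 96.9% above the median signal and 77.8% when a region had to overlap 50% of the peak. The number of words whose interval left out 0 (6 of 12) was 10 with windows of 200 bp to either side and 3 for summits within 100 bp of a start, and the difference in median G and C (-3.98 points) was -5.94 with 50 bp and -2.99 with 200 bp. The cause of these changes was not tested. The differences in signal and between pairs and lone genes kept their direction, with intervals that left out 0, under every setting run. Settings by summit distance, by G and C, by a single annotated start and with the summit 1 bp lower were chosen after seeing the data. No paired analysis was possible because there is 1 group. Without read counts, how far depth limits the weak peaks is unknown, and peaks absent from the reproducible list are not shown to be unbound.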
